A study of Mus musculus with 12 samples.

Results

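Interferon-stimulated genes are switched on in cells that have sensed an interferon, and 36 of them, listed by symbol, were followed here through mouse liver next to tumours and after toxic injury. All 36 were among the 41128 genes of the deposited count table, and all 36 passed the count filter in every comparison. After one dose of the liver toxin thioacetamide (TAA) most members rose, 26 of 36 at 24 h and 25 of 36 at 48 h, against 21.3% and 25% of all tested genes, with none lower. In hepatocytes from around tumours 5 of 36 rose (Oasl2, Irf1, Gbp2, Oas2 and Ifit2), which is no larger a share than the 19.0% of all tested genes, and the libraries of that group were far apart. Isg15, Usp18, Dhx58 and Irf9 were higher after TAA but had log2 fold changes near or under 0 beside tumours. No call for a difference between these responses held with every library left out in turn, and mouse stock and treatment differ together between them.

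Interferons are secreted proteins that warn cells of infection or damage. Type I interferons bind the receptor pair IFNAR1 and IFNAR2, type III interferons bind IFNLR1 with IL10RB, and interferon gamma binds IFNGR1 and IFNGR2. Kinases such as JAK1 and TYK2 then phosphorylate transcription factors, among them STAT2, which works with IRF9 in a complex that binds the interferon-stimulated response element (ISRE) in promoters, while signalling by interferon gamma acts through the gamma-activated site (GAS). The products of the induced genes degrade viral RNA, block translation, mark proteins with ISG15, present peptides and feed back on the pathway, and in liver both hepatocytes and resident macrophages can respond.

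The 12 libraries of polyadenylated RNA fell into 5 groups. Hepatocytes from the line labelled Lats1tm1.1Jfm/RjoJ; Lats2tm1.1Jfm/RjoJ came from 3 untreated samples and from 3 samples taken beside tumours (peritumoral), and all 6 were titled wild type. Tumours had been started by hydrodynamic injection (a large volume given fast) of 1 µg of SB11 (a transposase), 20 µg of myc-NICD (the intracellular part of Notch) and 4 µg of myr-ha-Akt (active Akt) at 8 weeks of age and had grown for 8 weeks, so the age of 8 weeks given for every sample cannot be that of these mice at harvest. Tumour, injection and any difference in age at harvest therefore cannot be told apart in the comparison with untreated hepatocytes. Livers of CD-1 IGS mice were untreated (2 libraries) or taken 24 h (2) or 48 h (2) after TAA was given once into the peritoneum. The sample labels call them gradient-purified hepatocytes too, but the series design calls them livers, as is done here. No label names a Cre transgene, which deletion of these Lats alleles would need, and none ties libraries to separate animals, so p-values measure the spread between these libraries.

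Total counts ran from 16228747 to 18522324 in the hepatocyte libraries and from 9640845 to 13692235 in the liver libraries. The 8 hepatocyte markers (Alb, Ttr and others) were detected in every library and summed to between 78326 and 177975 RPM, the deposited library-scaled read counts. All genes spread more between hepatocyte replicates (common coefficient of variation 0.358) than between liver replicates (0.188). Values below are CPM, read counts scaled to library size after trimmed-mean (TMM) normalisation, which sets the bulk of genes level between libraries. Left unscaled, the median of all genes moves to 0.23 beside tumours, 0.53 at 24 h and 0.68 at 48 h on the log2 scale, and the split of all genes into higher and lower calls moves from 2560 and 1370 to 2593 and 205 beside tumours, from 2877 and 2767 to 6127 and 1228 at 24 h, and from 3372 and 3226 to 7661 and 971 at 48 h. Fewer cells of a type and less RNA per cell cannot be told apart in bulk samples.

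Many members sit beside relatives. On GRCm38, Ifit2, Ifit3 and Ifit1 lie on chromosome 19 between bases 34550694 and 34650009, Oas2 and Oas3 lie 3245 bases apart on chromosome 5 with Oas1a further along, and Oasl2 and Oasl1 lie 11006 bases apart on the same chromosome. Gbp3 and Gbp2 lie on chromosome 3 and Mx1 and Mx2 on chromosome 16. Reads of near-identical relatives (the Oas1, Ifit3, Gbp, Irgm and Mx families) may have been split in counting, Irgm2 and Igtp share 4.39% and 8.01% of their exon bases, and 16.8% of the exon bases of Ifi35 lie opposite an antisense gene. Mx2 is annotated as a polymorphic pseudogene, and the reference does not show which allele these mice carry.

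Here 7 promoters are shown, since the genes behind them stand for the patterns described below. Each is the 300-base RefSeq window on GRCm38.p6 from 250 bases before the transcription start to 50 after it, read 5′ to 3′ on the gene's own strand, with matches in capitals to the ISRE core GAAANNGAAA or the GAS letters TTCNNNGAA on either strand. Isg15, higher at both times after TAA but not beside tumours, has 3 overlapping ISRE cores, first bases 78, 72 and 66 before the start, at chr4:156200769-156201068 on the minus strand, and Ifit1, at chr19:34640639-34640938 on the plus strand, has 2 cores, 104 and 85 before the start. Oas3, with the largest change at 48 h, has 1 core 75 before its start at chr5:120777610-120777909 on the minus strand, and Gbp2 has 1 core 59 before its start at chr3:142620413-142620712 on the plus strand. Irf1, higher in all 3 comparisons with controls, has a GAS match 90 before its start at chr11:53769764-53770063 on the plus strand. Oasl2, also higher in all 3, holds neither motif at chr5:114896684-114896983 on the plus strand, while Stat2, which passed no test, has an ISRE core 222 before its start at chr10:128270248-128270547 on the plus strand.
Isg15: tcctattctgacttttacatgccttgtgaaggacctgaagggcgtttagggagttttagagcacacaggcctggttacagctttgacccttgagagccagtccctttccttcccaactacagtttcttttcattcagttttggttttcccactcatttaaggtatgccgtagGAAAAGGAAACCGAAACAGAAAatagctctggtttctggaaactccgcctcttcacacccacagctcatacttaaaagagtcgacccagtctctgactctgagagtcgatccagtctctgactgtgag
Ifit1: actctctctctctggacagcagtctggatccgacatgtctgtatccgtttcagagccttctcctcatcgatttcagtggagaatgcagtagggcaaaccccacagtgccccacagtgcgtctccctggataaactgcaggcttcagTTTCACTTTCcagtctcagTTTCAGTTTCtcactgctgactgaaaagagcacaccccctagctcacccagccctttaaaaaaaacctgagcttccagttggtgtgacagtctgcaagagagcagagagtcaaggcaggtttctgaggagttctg
Oas3: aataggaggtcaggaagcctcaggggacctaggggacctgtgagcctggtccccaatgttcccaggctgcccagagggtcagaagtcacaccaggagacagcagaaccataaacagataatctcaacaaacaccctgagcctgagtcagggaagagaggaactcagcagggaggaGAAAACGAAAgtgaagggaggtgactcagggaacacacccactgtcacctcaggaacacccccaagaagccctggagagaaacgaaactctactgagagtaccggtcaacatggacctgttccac
Gbp2: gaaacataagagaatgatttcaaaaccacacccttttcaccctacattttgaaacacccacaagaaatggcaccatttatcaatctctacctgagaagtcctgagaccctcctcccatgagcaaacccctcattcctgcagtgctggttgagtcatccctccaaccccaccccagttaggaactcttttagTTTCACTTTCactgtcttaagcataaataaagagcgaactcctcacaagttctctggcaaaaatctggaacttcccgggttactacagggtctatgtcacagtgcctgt
Irf1: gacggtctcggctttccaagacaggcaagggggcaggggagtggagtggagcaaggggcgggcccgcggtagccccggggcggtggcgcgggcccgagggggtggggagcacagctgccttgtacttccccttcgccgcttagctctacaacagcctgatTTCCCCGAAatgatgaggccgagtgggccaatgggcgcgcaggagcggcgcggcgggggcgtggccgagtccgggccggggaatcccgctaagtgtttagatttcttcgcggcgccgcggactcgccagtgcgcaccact
Oasl2: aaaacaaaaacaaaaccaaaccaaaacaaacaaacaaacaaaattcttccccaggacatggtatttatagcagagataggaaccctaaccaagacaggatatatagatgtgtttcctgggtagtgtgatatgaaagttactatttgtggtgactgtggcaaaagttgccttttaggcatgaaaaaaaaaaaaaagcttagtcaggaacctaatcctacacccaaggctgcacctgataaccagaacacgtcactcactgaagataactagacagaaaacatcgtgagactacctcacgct
Stat2: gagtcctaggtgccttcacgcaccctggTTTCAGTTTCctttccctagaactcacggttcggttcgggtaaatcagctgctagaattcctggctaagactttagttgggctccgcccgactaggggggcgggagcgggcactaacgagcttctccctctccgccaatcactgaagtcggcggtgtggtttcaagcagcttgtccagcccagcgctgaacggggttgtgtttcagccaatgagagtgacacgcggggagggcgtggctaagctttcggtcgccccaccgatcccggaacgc

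RefSeq promoters matched 27 of the 36 members. Of these 27 genes, 15 (55.6%) held the ISRE core in a window of this length, against 3.99% of the 27025 genes with a promoter in the table, and 7 (25.9%) held the GAS letters, against 9.55%. A match is a description of letters and not a measured binding site. Members with and without a core rose: at 24 h 8 of the 15 with a core and 11 of the 12 without one rose, and at 48 h the counts were 8 of 15 and 10 of 12.

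**Figure D1:**
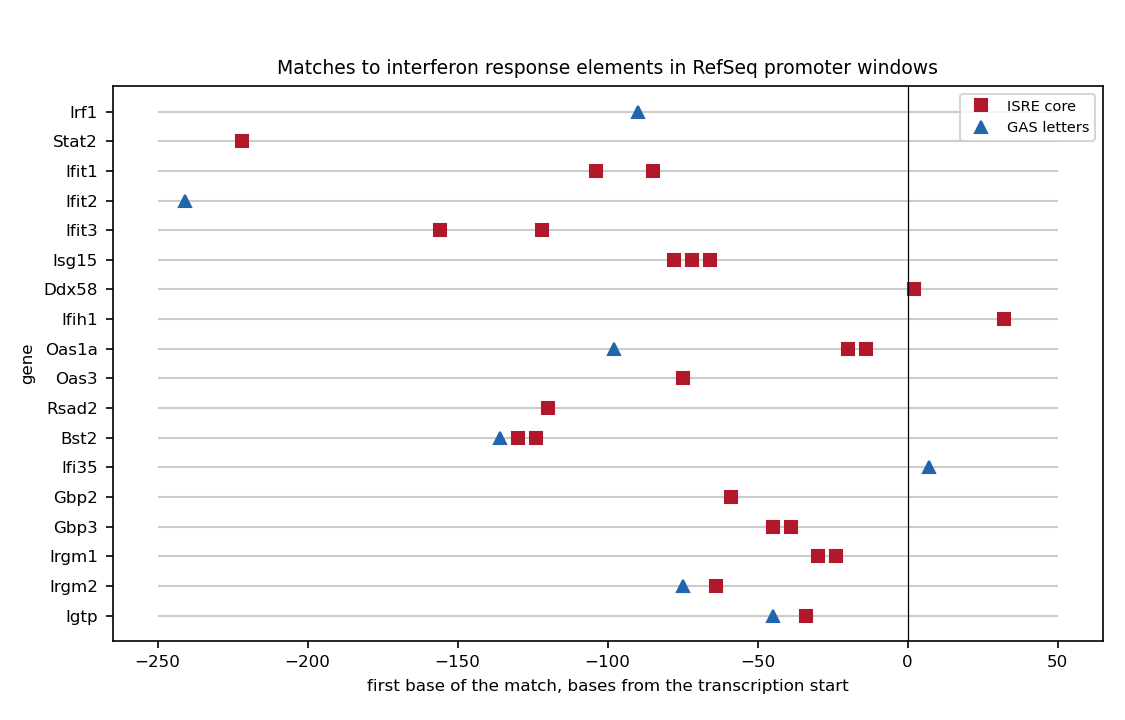
Positions of the ISRE core (squares) and GAS letters (triangles) in the RefSeq promoter windows of the 18 members that hold either, with the first base of each match in bases from the transcription start (vertical line) on the horizontal axis and genes on the vertical axis. Isg15 has 3 cores in a row and Ifit2 and Stat2 have matches furthest upstream.

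Members differed widely in level before any treatment. Per kilobase of exon, Bst2, which tethers virus particles to the membrane, was the most abundant member in untreated hepatocytes at 264 ± 54.9 CPM per kb (SD, n = 3), followed by Irf7 at 27.8 ± 10.2 and Isg15 at 25.4 ± 3.24. The lowest there were Oas2 (0.713), Mx1 (0.431) and Oas3 (0.325 CPM per kb), and the median member stood at 8.09. In control livers Bst2 led again with 103 ± 14.5 CPM per kb (SD, n = 2), followed by Igtp (22.3 ± 12) and Irgm2 (17.9 ± 10.1), and Oasl2 (0.136), Oas2 (0.0795) and Oas3 (0.0432) were lowest. The spread of Igtp and Irgm2 was larger than the gap between them. Oas3 rested on 3 counts in each control liver and Oas2 on 2 and 5. Ratios against control livers are therefore given for these genes with an exact 95% interval that covers counting error only. Oas1a (11 and 4 counts), Oasl2 (11 and 6) and Mx1 (8 and 6) also rested on few counts there, and their changes carry that limit without an interval.

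**Figure D2:**
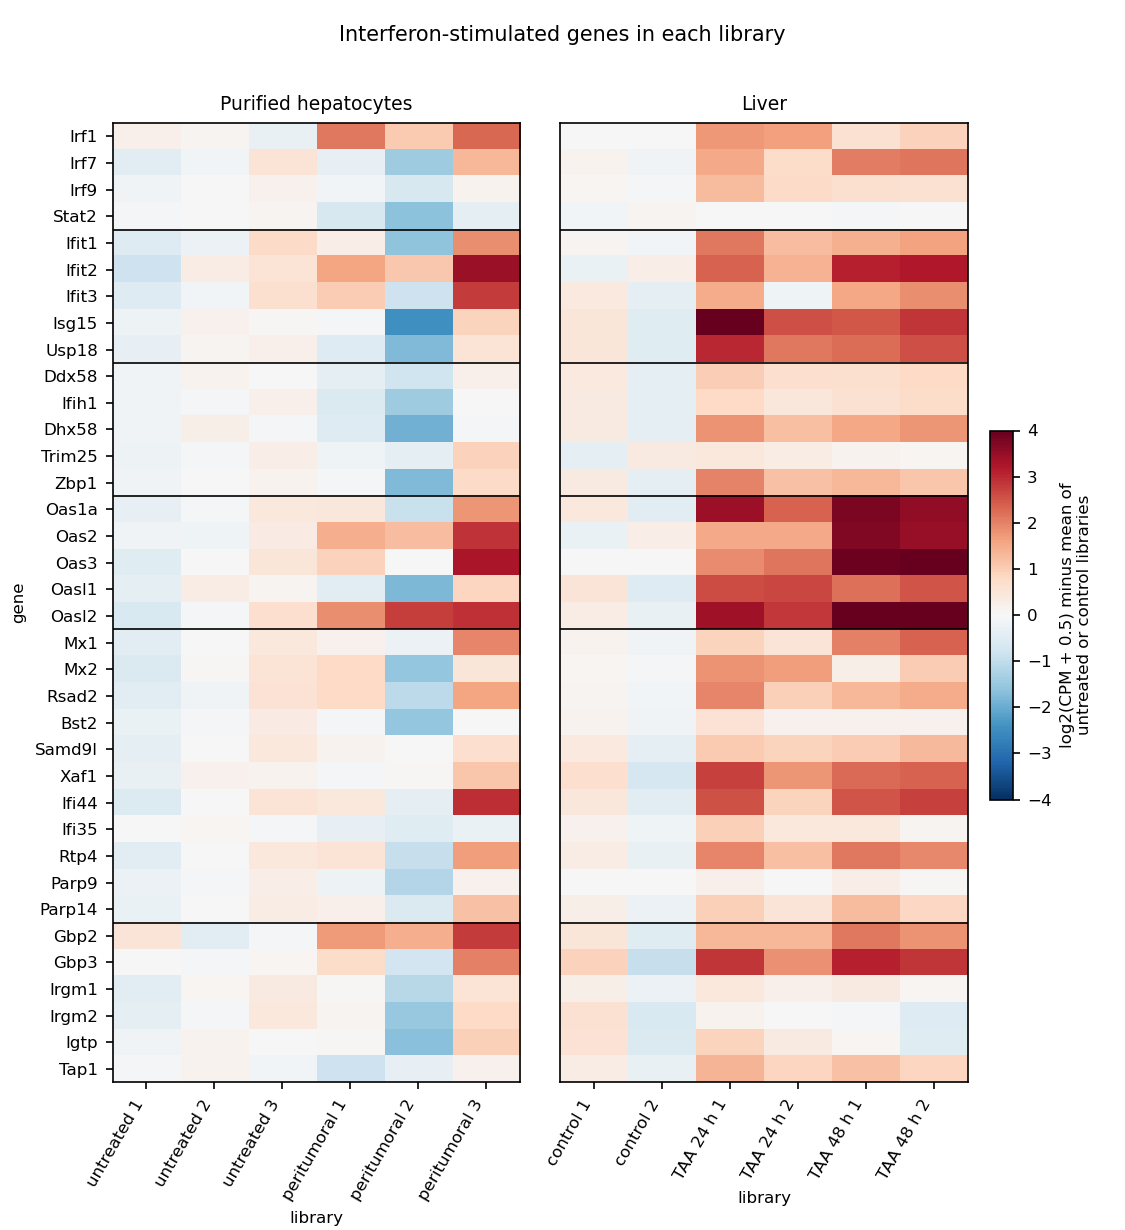
Each row is a member, grouped by role (transcription factors, IFIT and ISG15 system, sensors, OAS family, other effectors, GTPases and Tap1), and each column a library. Colour is log2(CPM + 0.5) minus the mean of the untreated (left) or control (right) libraries, and colours are capped at 4 either way. In hepatocytes the third peritumoral library is the highest of its group for 35 of 36 members and the second is the lowest for 33, whereas the TAA livers are shifted in both replicates.

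Beside tumours 5 of 36 members rose and none fell, against 19.0% of all 13442 tested genes higher and 10.2% lower, a share of members near or under that of all genes. Their median log2 fold change was 0.23 (all genes -0.02), and 22 of 36 were above 0. The 6 libraries did not overlap for 5 members in the higher direction and 2 in the lower one, Stat2 and Ifi35, against 25% and 24.5% of all tested genes. Leaving out 1 of the untreated libraries left 3, 2 and 3 higher members (replicates 1, 2 and 3 in turn). Higher calls over all genes were then 1293, 1364 and 2162, and 2560 with all libraries. With peritumoral replicate 2 left out 8 members were higher, since Oas3, Ifit3 and Gbp3 passed too, beside 2478 of all genes. With replicate 3 left out the median of the members turned to -0.33.

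Among the transcription factors, Irf1, which is induced by interferon gamma and by NF-kappaB signals, stood at 53.5, 50.2 and 38.1 CPM in untreated hepatocytes and at 203, 96.1 and 231 CPM beside tumours. All 3 peritumoral libraries were above all untreated ones, and Irf1 rose by 1.90 ± 0.34 on the log2 scale (SE, n = 3 against 3, adjusted p = 0.00992 by edgeR's quasi-likelihood test). Irf7, which amplifies type I interferon production, stood at 74.3, 92.5 and 148 CPM in untreated and 79.9, 37.4 and 253 CPM in peritumoral libraries. The peritumoral values of Irf7 lay on both sides of the untreated ones (log2 fold change 0.23 ± 0.66, adjusted p = 0.820). Stat2, a subunit of the ISRE-binding complex, was at 119, 125 and 136 CPM in untreated and 80.6, 40.1 and 96.4 CPM in peritumoral libraries. Its groups did not overlap, lower beside tumours, but its log2 fold change of -0.81 ± 0.31 did not pass (adjusted p = 0.0949), and Irf9 did not pass either (-0.17 ± 0.22).

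The OAS family makes or relates to enzymes that build a second messenger from double-stranded RNA and so switch on RNase L. Oasl2 was at 2.60, 4.07 and 7.08 CPM in untreated and 16.6, 31.6 and 35.7 CPM in peritumoral hepatocytes. Without overlap between the groups it rose by 2.62 ± 0.45 on the log2 scale (adjusted p = 0.00899), and like Irf1 it kept its call with any one library left out. Oas2 stood at 2.77, 2.73 and 4.01 CPM in untreated and 9.45, 8.09 and 26.4 CPM in peritumoral libraries. It rose by 2.21 ± 0.50 (adjusted p = 0.0209), a call lost without untreated replicate 1 or 2. Oas3 was at 1.44, 2.15 and 3.30 CPM against 4.60, 2.20 and 25.6 CPM. Peritumoral replicates 1 and 3 were above all untreated libraries and replicate 2 was among them, and the log2 fold change of 2.24 ± 0.91 did not pass (adjusted p = 0.110) and was 0.56 without peritumoral replicate 3. Oas1a (0.83 ± 0.65) and Oasl1 (-0.12 ± 0.60) did not pass.

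Of the IFIT family, whose products bind foreign RNA ends, Ifit2 was at 1.85, 4.71 and 5.58 CPM in untreated and 12, 8.46 and 45.3 CPM in peritumoral hepatocytes. The groups did not overlap and Ifit2 rose by 2.44 ± 0.73 (adjusted p = 0.0468), but the call was lost without any one untreated library or peritumoral replicate 3. Ifit1 stood at 6.18, 7.68 and 15.7 CPM against 11, 2.65 and 34.3 CPM, and Ifit3 at 3.23, 4.48 and 7.79 CPM against 10.3, 2.53 and 37.1 CPM. Both overlapped between the groups and neither passed (0.70 ± 0.83 and 1.69 ± 0.88). Isg15, the ubiquitin-like protein attached to others, was at 16.6, 21.4 and 19.7 CPM in untreated and 17.9, 3.11 and 36.2 CPM in peritumoral libraries. The peritumoral values lay below, among and above the untreated ones, with a log2 fold change of -0.01 ± 0.72 (adjusted p = 0.992). Usp18, which removes ISG15 and damps the type I receptor, gave -0.32 ± 0.53.

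Among the interferon-inducible GTPases, Gbp2, which coats pathogen vacuoles, was at 4.45, 2.09 and 2.75 CPM in untreated and 10.8, 9.0 and 23.6 CPM in peritumoral libraries. Every peritumoral library was above every untreated one, and Gbp2 rose by 2.22 ± 0.47 (adjusted p = 0.0165), a call lost without untreated replicate 2 or 3. Gbp3 gave 1.12 ± 0.64, and Irgm1, Irgm2, Igtp and the peptide transporter Tap1 lay between -0.28 and 0.13, none past the test. None of the 5 sensor genes passed (Ddx58, Ifih1, Dhx58, Trim25 and Zbp1, log2 fold changes from -0.66 to 0.23), and none of the 11 other effectors did. The largest of those was Ifi44, at 5.03, 7.68 and 11.3 CPM against 10.5, 5.85 and 62.4 CPM. It overlapped between the groups, and its log2 fold change of 1.71 ± 0.87 (adjusted p = 0.183) was 0.02 without peritumoral replicate 3.

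The 3 peritumoral libraries were ordered alike for nearly every member. Replicate 3 was the highest of the 3 for 35 of 36 members, against 28.4% of all tested genes, and replicate 2 was the lowest for 33 of 36, against 38.5%. No member was higher in replicate 2 than in replicate 3, and the median difference was -1.95 on the log2 scale (all tested genes 0.00). Among all 6 hepatocyte libraries, replicate 2 was lowest for 25 members and replicate 3 highest for 28. Untreated libraries had an order too, replicate 1 being lowest for 30 of 36 members, but with a median gap to replicate 3 of -0.52.

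Markers of other cells were higher beside tumours, where 19.0% of all tested genes were higher. The 10 markers of Kupffer cells and macrophages, all detected, summed to between 181 and 369 RPM in untreated and between 1396 and 3956 RPM in peritumoral libraries, and 8 of 10 rose. The macrophage sum was 1396, 2171 and 3956 RPM in peritumoral replicates 1, 2 and 3. It was highest in replicate 3, as were nearly all members, but replicate 2, lowest for most members, was above replicate 1. The 6 bile duct markers summed to 1074, 10114 and 749 RPM in these libraries, against 33.3 to 50.5 RPM in untreated ones (5 of 6 higher). Spp1 of this list is also in macrophages, Itgam of the macrophage list in neutrophils, and Tcf4 of the plasmacytoid dendritic cell list in stromal cells. Of the other lists, 6 of 8 stellate cell and fibroblast markers and 8 of 8 sinusoidal endothelial markers were higher. Of 8 neutrophil markers 6 were tested, and all 6 were higher (3 without untreated replicate 1). The 10 T and NK cell markers summed to 5.19 to 12.4 RPM against 1.36 to 3.08 RPM (1 higher, 3 tested), the 5 B cell markers to 6.77 to 24.2 RPM against 1.29 to 1.96 RPM (1 higher, 1 tested), and the 6 plasmacytoid dendritic cell markers to 29.3 to 51.7 RPM against 14.6 to 36.7 RPM (1 higher, 4 tested). The single T and NK cell and plasmacytoid dendritic cell calls were lost without the first or the second untreated library. Hepatocyte markers summed to 107836, 78326 and 140228 RPM in peritumoral replicates 1, 2 and 3, which is the order of most members. Untreated libraries held 90863 to 94695 RPM, and none of the 8 markers passed. Endothelial, neutrophil, T and NK cell, B cell and plasmacytoid dendritic cell sums were also highest in replicate 3. The stellate cell sum was highest in replicate 2. The part of these cells in the values of the members was not tested.

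**Figure D3:**
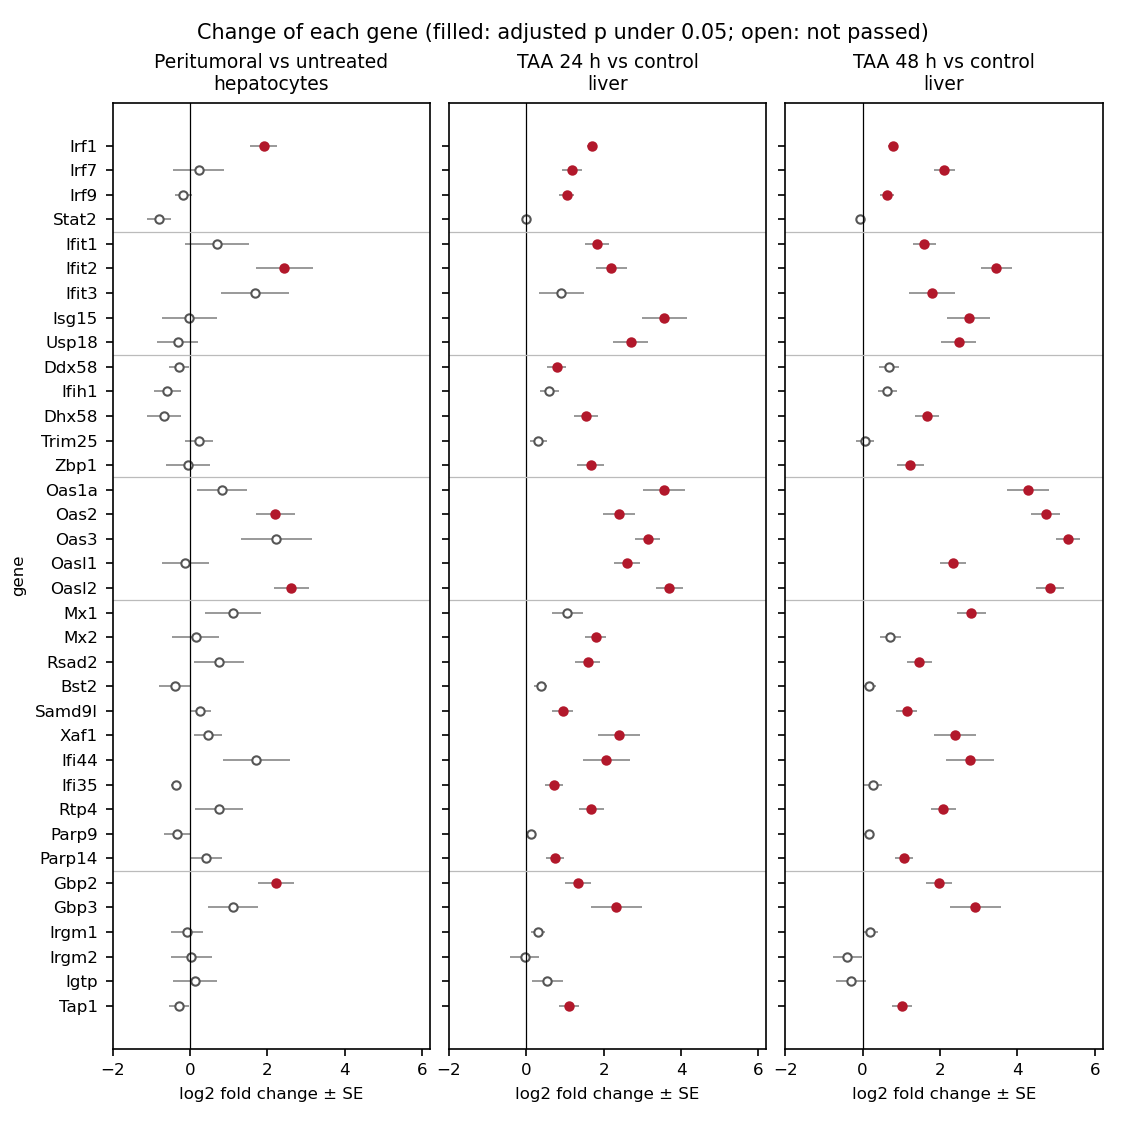
Log2 fold change of each member with its SE (bars) in peritumoral hepatocytes (n = 3 against 3) and in liver at 24 h and 48 h after TAA (n = 2 against 2 each, same control libraries). Filled points passed an adjusted p of 0.05. Few points are filled on the left, and the OAS family lies furthest right at 48 h.

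After TAA 26 of 36 members rose at 24 h and 25 of 36 at 48 h, against 21.3% and 25% of all 13497 tested genes. None fell at either time, against 20.5% and 23.9% of all genes. The median member changed by 1.44 at 24 h and 1.53 at 48 h on the log2 scale (all genes 0.02 and -0.03). Both times were compared with the same 2 control libraries, so their values are given side by side and are not independent. With any 1 liver library left out, fewer of all genes were called higher at either time, and the member counts below share that loss. Of the calls, 13 of 26 at 24 h and 17 of 25 at 48 h held with any one library left out. At 24 h the count was 15 without 24 h replicate 1 and 17 without control replicate 2; at 48 h the lowest count was 19, without control replicate 2, when Irgm2 also passed as lower.

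Irf1 stood at 44.4 and 43.4 CPM in control livers, at 149 and 138 CPM at 24 h and at 67.9 and 82.8 CPM at 48 h. It had the smallest p of all members at 24 h, up by 1.71 ± 0.14 (SE, n = 2 against 2, adjusted p = 0.000584), and was still higher at 48 h (0.78 ± 0.13, adjusted p = 0.00371). Irf7 went from 19.2 and 15.5 CPM to 50.1 and 28.8 CPM and then 72.6 and 77.4 CPM. All TAA libraries exceeded both controls, and Irf7 rose by 1.18 ± 0.26 at 24 h (adjusted p = 0.0130, lost without control replicate 2) and 2.11 ± 0.27 at 48 h (adjusted p = 0.00120). Irf9, the DNA-binding partner of STAT2, rose from 28.9 and 25.5 CPM to 65.5 and 46.4 CPM at 24 h (1.04 ± 0.18, adjusted p = 0.00566). At 48 h it was at 42.6 and 41.5 CPM (0.63 ± 0.18, adjusted p = 0.0276, lost when either control or either 48 h library was left out). Stat2 stayed at 85.5 and 86.6 CPM and then 81.5 and 83.7 CPM against 78.8 and 92.7 CPM in controls. It did not pass at either time (0.01 ± 0.12 and -0.05 ± 0.12), although the 48 h value turns to 0.66 when libraries are left unscaled, when all genes move by a similar amount.

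The OAS family moved as a whole, 5 of 5 members higher at both times with any one library left out. Oasl2 was at 1.13 and 0.601 CPM in controls, 13.7 and 9.01 CPM at 24 h and 23.7 and 26.5 CPM at 48 h. It rose by 3.70 ± 0.35 (adjusted p = 0.000741) and 4.84 ± 0.35 (adjusted p = 0.000280). Oas3 was at 0.309 and 0.301 CPM in controls, 2.50 and 3.03 CPM at 24 h and 11.6 and 13.3 CPM at 48 h. Each step is wider than the spread within a group; on 6 counts in the controls the ratio was 9.08 (95% interval 3.99 to 25.5) at 24 h (adjusted p = 0.000916) and 41.1 (18.7 to 113) at 48 h (adjusted p = 0.000169). Oas2 was at 0.206 and 0.501 CPM in controls, 1.91 and 1.93 CPM at 24 h and 10.6 and 8.94 CPM at 48 h, with ratios of 5.39 (2.44 to 14) and 27.1 (13.0 to 68.1) on 7 control counts (adjusted p = 0.00490 and 0.000329). Oas1a went from 1.13 and 0.401 CPM to 12.4 and 5.78 CPM and then 16.2 and 13.7 CPM. It rose by 3.55 ± 0.54 (adjusted p = 0.00326) and 4.27 ± 0.54 (adjusted p = 0.00118). Oasl1, a brake on Irf7 translation, was at 12.2 and 5.61 CPM in controls, 52.8 and 55.6 CPM at 24 h and 40.1 and 49.5 CPM at 48 h (2.61 ± 0.34, adjusted p = 0.00194, and 2.33 ± 0.34, adjusted p = 0.00194).

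In the ISG15 system, Isg15 was at 5.57 and 2.61 CPM in controls, 71.8 and 25.3 CPM at 24 h and 23.8 and 30.8 CPM at 48 h. The 24 h libraries were far apart yet both above the controls, and Isg15 rose by 3.57 ± 0.57 (adjusted p = 0.00404) and 2.74 ± 0.56 (adjusted p = 0.00734). Usp18 went from 4.85 and 2.21 CPM to 30.0 and 15.8 CPM and then 17.3 and 22.1 CPM (2.70 ± 0.45, adjusted p = 0.00449, and 2.48 ± 0.44, adjusted p = 0.00448). Ifit1 was at 5.78 and 4.91 CPM in controls, 24.5 and 13.3 CPM at 24 h and 15.2 and 17.2 CPM at 48 h. It rose by 1.82 ± 0.31 (adjusted p = 0.00476) and 1.60 ± 0.31 (adjusted p = 0.00568). Ifit2 was at 1.34 and 2.10 CPM in controls, 10.7 and 5.23 CPM at 24 h and 18.4 and 19.7 CPM at 48 h, higher by 2.19 ± 0.40 (adjusted p = 0.00642) and 3.46 ± 0.40 (adjusted p = 0.000922). Ifit3 overlapped at 24 h, with 10.6 and 3.03 CPM against 4.74 and 2.51 CPM (0.90 ± 0.59, not passed). At 48 h it was at 11.1 and 13.9 CPM and rose by 1.79 ± 0.59 (adjusted p = 0.0421), a call lost without either control or either 48 h library.

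Of the 5 sensor genes 3 rose at 24 h (0 without 24 h replicate 1) and 2 at 48 h (1 without either 48 h library, 4 without control replicate 1), and Dhx58 and Zbp1 were higher at both times. Dhx58 (LGP2), which tunes the RNA sensors RIG-I and MDA5, was at 10 and 5.81 CPM in controls, 28.1 and 18.2 CPM at 24 h and 23.3 and 27.1 CPM at 48 h. It rose by 1.55 ± 0.31 (adjusted p = 0.00942, lost without 24 h replicate 1) and 1.67 ± 0.31 (adjusted p = 0.00536). Zbp1, a sensor of Z-form nucleic acid that can start cell death, rose by 1.66 ± 0.36 (lost without 24 h replicate 1 or control replicate 2) and 1.23 ± 0.35 (lost without control replicate 2 or either 48 h library). Ddx58 (RIG-I) passed at 24 h (0.78 ± 0.25, adjusted p = 0.0452, lost when any library but control replicate 1 was left out) but not at 48 h (0.68 ± 0.25). Ifih1 (MDA5) stood at 42.2 and 25.6 CPM in controls, 57.7 and 44.9 CPM at 24 h and 50.4 and 55.0 CPM at 48 h. All its TAA libraries were above both controls, but its changes of 0.60 ± 0.25 and 0.64 ± 0.25 did not pass (adjusted p = 0.0923 and 0.0715). The ubiquitin ligase Trim25, a cofactor of RIG-I, gave 0.31 ± 0.22 and 0.07 ± 0.22.

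Among the other effectors 8 of 11 rose at 24 h (3 without 24 h replicate 1 or without control replicate 2) and 7 of 11 at 48 h (4 without control replicate 2). The 2 Mx genes, of a family of dynamin-like GTPases that trap viral particles, were called at different times. Mx1 was at 0.825 and 0.601 CPM in controls, 1.76 and 1.24 CPM at 24 h and 4.37 and 5.74 CPM at 48 h. It did not pass at 24 h (1.06 ± 0.40, adjusted p = 0.0724) and rose at 48 h (2.81 ± 0.37, adjusted p = 0.00139). Mx2 was at 7.22 and 6.52 CPM in controls, 25.1 and 22.7 CPM at 24 h and 8.24 and 14.3 CPM at 48 h. It rose at 24 h (1.80 ± 0.27, adjusted p = 0.00334), while the 48 h value of 0.72 ± 0.27 did not pass (adjusted p = 0.0661). Rtp4 went from 6.29 and 4.01 CPM to 20.9 and 12.1 CPM and then 23.4 and 20.5 CPM (1.68 ± 0.33, adjusted p = 0.00816, and 2.09 ± 0.33, adjusted p = 0.00268). Rsad2 (viperin), Xaf1, Ifi44, Samd9l and Parp14 also rose at both times, by 0.74 to 2.39 at 24 h and 1.07 to 2.77 at 48 h, and Ifi35 at 24 h (0.72 ± 0.23). Of these only Xaf1 at 48 h kept its call with any one library left out. Bst2 and Parp9 did not pass at either time.

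Of the GTPases and peptide transport, 3 of 6 rose at both times, Gbp2, Gbp3 and Tap1; at 24 h none did without 24 h replicate 1 and 1 did without control replicate 2. Gbp2 was at 6.50 and 3.01 CPM in controls, 12 and 11.9 CPM at 24 h and 20.8 and 16.5 CPM at 48 h. It rose by 1.33 ± 0.34 (adjusted p = 0.0215, lost without either 24 h library) and 1.97 ± 0.34 (adjusted p = 0.00406). Gbp3 rose by 2.33 ± 0.65 and 2.91 ± 0.66 and Tap1 by 1.11 ± 0.26 and 1.01 ± 0.26, the 24 h calls of both being lost without 24 h replicate 1 or control replicate 2, and the 48 h call of Tap1 without 48 h replicate 1 or control replicate 2. The 3 immunity-related GTPases Irgm1, Irgm2 and Igtp, classic targets of interferon gamma, lay between -0.04 and 0.55 at 24 h and between -0.39 and 0.20 at 48 h. Their TAA libraries overlapped with the controls, and none passed.

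Control replicate 1 was above control replicate 2 for 32 of 36 members (53.8% of all tested genes) and 24 h replicate 1 above replicate 2 for 32 of 36 (50.1%), with median differences of 0.58 and 0.49 on the log2 scale. At 48 h the replicates were close, replicate 1 above replicate 2 for 15 of 36 members with a median difference of -0.09. Markers of other cells were higher after TAA as well, where 21.3% and 25% of all tested genes were higher at 24 h and 48 h. In liver 2 of 10 T and NK cell, 2 of 5 B cell and 4 of 8 neutrophil markers were tested. For plasmacytoid dendritic cells 4 of 6 markers were tested and for bile duct 5 of 6. All markers of the remaining lists were tested. The 10 Kupffer cell and macrophage markers summed to 65.4 and 147 RPM in controls, 380 and 507 RPM at 24 h and 814 and 1363 RPM at 48 h, with 6 of 10 and 10 of 10 higher, and the first library of each group had the larger sum. Stellate cell and fibroblast markers (7 and 8 of 8 higher), endothelial markers (5 and 6 of 8; 3 at either time without control replicate 2), neutrophil markers (3 and 4 of 8, with 6 at 0 in both control livers), bile duct markers (4 and 2 of 6; 2 at 24 h without either 24 h library or control replicate 1, 1 at 48 h without 48 h replicate 2 or control replicate 1) and plasmacytoid dendritic cell markers (2 and 3 of 6, 1 lower at 24 h; 1 and 0 without either 24 h library) were higher at 24 h and 48 h. The T and NK cell list summed to 0.526 to 1.33 RPM in controls, 2.0 to 2.04 RPM at 24 h and 3.87 to 4.67 RPM at 48 h, with 1 of 10 higher at both times (0 at 24 h with any control or 24 h library left out, 0 at 48 h without control replicate 2), and no B cell marker passed. Of the 8 hepatocyte markers 3 were lower at 24 h (1 without 24 h replicate 1) and 4 at 48 h (1 without 48 h replicate 1, 2 without 48 h replicate 2 or control replicate 2). The part of these cells in the values of the members was not tested.

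**Figure D4:**
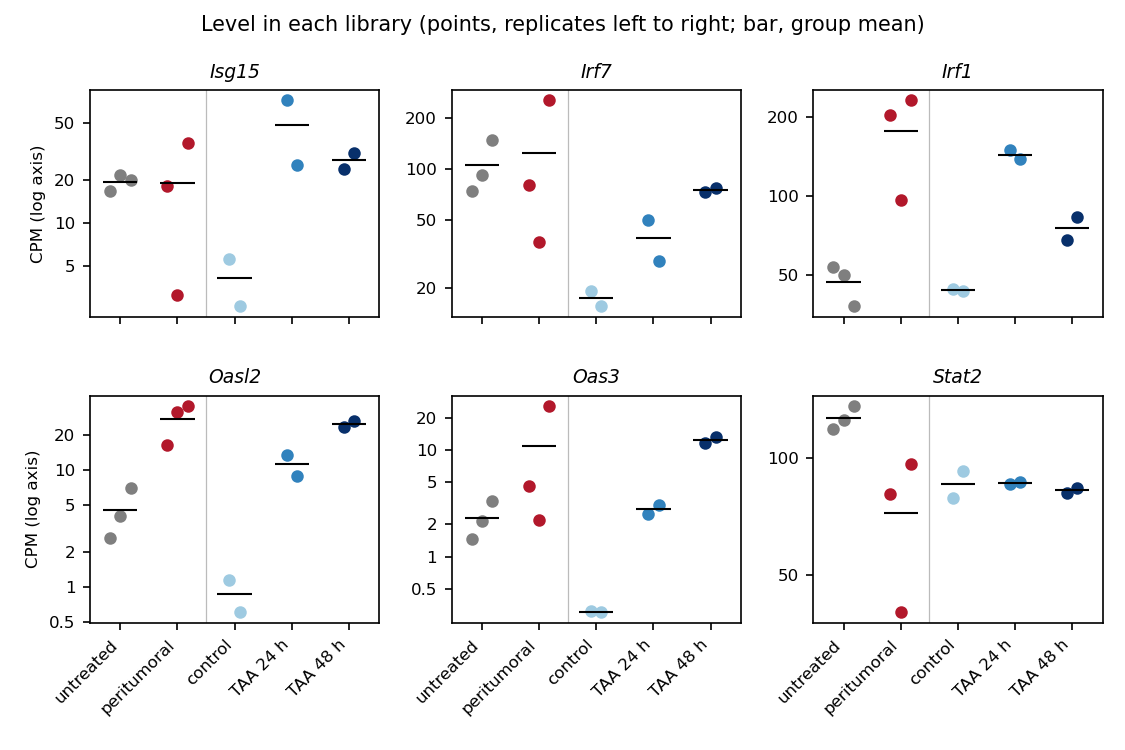
CPM (log axis) of 6 members in each library (points, replicates in order from left to right) with group means (bars). Among the liver groups Irf1 is highest at 24 h and Irf7, Oasl2 and Oas3 at 48 h, Isg15 is widely spread beside tumours, and Stat2 is level in liver.

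Between 24 h and 48 h the median member did not move (-0.03, all genes 0.01), and few members were called, near the shares of all genes. Oas3, Oas2 and Mx1 were higher at 48 h than at 24 h, 3 of 36 members against 4.96% of all tested genes, and Irf1 was lower, 1 of 36 against 2.36%. The differences were 2.17 ± 0.22 for Oas3 (adjusted p = 0.0114), 2.34 ± 0.29 for Oas2 (adjusted p = 0.0146), 1.75 ± 0.32 for Mx1 (adjusted p = 0.0320) and -0.93 ± 0.13 for Irf1 (adjusted p = 0.0201). All 4 calls were lost without either 24 h library or without 48 h replicate 1, and Mx1 also without 48 h replicate 2. No member was called without 24 h replicate 1 or 2, when only 2 and 0 of all genes were. The largest differences that did not pass were Ifit2 (1.26 ± 0.35), Oasl2 (1.15 ± 0.27) and Mx2 (-1.08 ± 0.26), whose libraries did not overlap between the times. Irf7 (0.93 ± 0.26, adjusted p = 0.0783), Isg15 (-0.83 ± 0.50), Ifit1 (-0.22 ± 0.29) and Stat2 (-0.06 ± 0.12) did not pass either.

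Across the peritumoral and the 3 liver comparisons, the members that passed in none were Bst2, Ifih1, Igtp, Irgm1, Irgm2, Parp9, Stat2 and Trim25. The share of all genes that passed in none was not worked out, so this is a list only. In untreated hepatocytes these members stood above the median member in level per kilobase, from Ifih1 at 8.57 ± 1.08 CPM per kb (SD, n = 3) to Bst2 at the top. A test that is not passed does not show that they were level.

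The rest of the pathway was read from lists of ligands, receptors, signal factors, brakes and further induced genes. Their counts stand against the shares of all tested genes: 19.0% higher and 10.2% lower beside tumours, 21.3% and 20.5% at 24 h, 25% and 23.9% at 48 h, and 4.96% and 2.36% between 48 h and 24 h. Of 16 interferon genes, 13 had no count in any library, and only Ifnb1, Ifnk and Ifng had any, 71 counts in all. Ifnb1, the first type I interferon made by many cells, had 3 counts in peritumoral replicate 3 and 1 in each 24 h liver. Ifnk had 5 and 5 counts at 24 h and 7 and 32 at 48 h and none in the controls, and Ifng had 5 counts or fewer in every library. No interferon gene passed the count filter in the fit of the hepatocyte or of the liver libraries. Ifnk passed the filter when either 24 h library or 48 h replicate 1 was left out. In the fit of all 12 libraries 1 interferon gene was tested, and neither of its response differences passed.

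Among 9 receptors and kinases, 2 rose and 1 fell beside tumours (4 rose with peritumoral replicate 1 left out, and 1 without replicate 3 or without untreated replicate 1 or 2), 4 rose and 1 fell at 24 h (1 and 0 without 24 h replicate 1, 2 and 0 without 24 h replicate 2 or control replicate 1), and 5 rose and 1 fell at 48 h. The peritumoral shares were near those of all genes. The type I receptor chain Ifnar1 stood at 46.8, 41.8 and 43.5 CPM in untreated and 43.6, 45.3 and 50.9 CPM in peritumoral hepatocytes and did not pass there (0.08 ± 0.14), at 24 h (-0.12 ± 0.13), at 48 h (-0.15 ± 0.13) or between the times (-0.03 ± 0.13). Ifnar2 did not pass beside tumours (0.50 ± 0.28) and was lower at 24 h (-0.44 ± 0.13, adjusted p = 0.0299, lost when any one liver library was left out) and at 48 h (-0.48 ± 0.13, adjusted p = 0.0192, lost without either 48 h library), with -0.04 ± 0.13 between the times. Ifngr1, the binding chain for interferon gamma, was at 38.5, 37.9 and 23.0 CPM in untreated and 39.9, 58.2 and 78.0 CPM in peritumoral hepatocytes. Its groups did not overlap, but 0.82 ± 0.30 did not pass (adjusted p = 0.0848). In liver it was at 19.0 and 19.5 CPM in controls, 26.7 and 28.4 CPM at 24 h and 43.0 and 40.6 CPM at 48 h. It rose at both times (0.52 ± 0.12, lost without control replicate 1 or either 24 h library, and 1.12 ± 0.12, adjusted p = 0.000759) and was higher at 48 h than at 24 h by 0.60 ± 0.12 (adjusted p = 0.0387, lost without any one 24 h or 48 h library). Il10rb, shared by the interferon lambda and interleukin 10 receptors, rose in all 3 comparisons with controls, by 1.74 ± 0.27 beside tumours (adjusted p = 0.00687), 1.39 ± 0.26 at 24 h (adjusted p = 0.00753, lost without 24 h replicate 1) and 2.14 ± 0.27 at 48 h (adjusted p = 0.00112). Ifnlr1 was at 0.309 and 0.10 CPM in controls, 1.69 and 1.79 CPM at 24 h and 2.14 and 2.60 CPM at 48 h, with ratios of 8.56 (95% interval 3.14 to 32.7) and 11.8 (4.39 to 44.5) on 4 control counts. The kinase Tyk2 fell beside tumours (-0.69 ± 0.17, adjusted p = 0.0252, a call that did not survive omission of either of the first 2 untreated libraries or the last 2 peritumoral ones), and Ifngr2 rose at 48 h (0.62 ± 0.21, adjusted p = 0.0472, lost without either 24 h library, 48 h replicate 1 or control replicate 2). Ifngr2 did not pass beside tumours (0.56 ± 0.22), at 24 h (0.16 ± 0.21) or between the times (0.46 ± 0.21).

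Of 19 signal factors and upstream sensors, 5 rose and none fell beside tumours (18 tested, 3 higher without untreated replicate 1), and 9 rose and 3 fell at each TAA time (at 24 h 3 and 1 without 24 h replicate 1, 4 and 1 without control replicate 2). The counts of lower genes after TAA were no larger a share than those of all genes. Beside tumours those with the smallest p were the endotoxin receptor Tlr4 (2.26 ± 0.31, adjusted p = 0.00511) and Tmem173 (STING, 2.19 ± 0.37, adjusted p = 0.00833, lost without untreated replicate 1). After TAA Irf8, a factor of myeloid cells, rose by 1.80 ± 0.21 (adjusted p = 0.00127) and 2.48 ± 0.21 (adjusted p = 0.000357), Tmem173 by 2.60 ± 0.37 at 24 h (adjusted p = 0.00271) and Tlr7 by 3.55 ± 0.35 at 48 h (adjusted p = 0.000536). Tlr7 (2.19 ± 0.31) and Tlr9 were also higher at 48 h than at 24 h, Tlr9 on 46 against 3 counts with a ratio of 15.9 (5.11 to 80.0), both calls lost without any one 24 h or 48 h library.

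Of 12 genes that restrain the pathway, 3 rose and 1 fell beside tumours (11 tested; 2 rose with any one untreated library left out), 5 rose and 2 fell at 24 h, and 6 rose and 2 fell at 48 h, the lower counts being near the shares of all genes in each comparison. Socs1, which blocks JAK kinases, was at 0.693, 0.640 and 0.865 CPM in untreated and 6.12, 3.77 and 9.83 CPM in peritumoral hepatocytes. The groups were far apart and Socs1 rose by 3.16 ± 0.44 (adjusted p = 0.00513), as did Socs3 by 1.77 ± 0.31 (adjusted p = 0.00900). Tnfaip3 (A20), a brake on NF-kappaB, rose by 4.91 ± 0.30 at 24 h (adjusted p = 0.000350) and 3.99 ± 0.29 at 48 h (adjusted p = 0.000272). Rnf125, a ligase that targets RIG-I for degradation, fell from 122 and 163 CPM to 8.08 and 14.9 CPM at 24 h (-3.63 ± 0.31, adjusted p = 0.000623) and 15.1 and 13.7 CPM at 48 h (-3.30 ± 0.31, adjusted p = 0.000457).

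Among 51 other interferon-induced genes, 17 rose and none fell beside tumours (50 tested), 24 rose and 4 fell at 24 h, and 25 rose and 3 fell at 48 h, with 3 higher and 3 lower at 48 h than at 24 h (none without either 24 h library or 48 h replicate 1), near the shares of all genes between these times. The peritumoral count was 1 without untreated replicate 1 or 2 and 11 without peritumoral replicate 3, and the 24 h count 10 without 24 h replicate 1 and 14 without control replicate 2. Epsti1 (3.49 ± 0.45, adjusted p = 0.00426) and Uba7, the enzyme that activates ISG15 (1.13 ± 0.21, adjusted p = 0.0107, lost without untreated replicate 1 or 2), had the smallest p beside tumours. The chemokine Cxcl10, which draws T cells, was at 3.61 and 3.31 CPM in controls, 110 and 144 CPM at 24 h and 28.4 and 31.2 CPM at 48 h. It rose by 5.20 ± 0.19 (adjusted p = 0.000172) and 3.10 ± 0.18 (adjusted p = 0.000173) and was lower at 48 h than at 24 h by -2.09 ± 0.16 (adjusted p = 0.00983, lost without either 24 h library or 48 h replicate 1). Slfn5 rose by 2.23 ± 0.22 (adjusted p = 0.000901) and 3.13 ± 0.23 (adjusted p = 0.000281), and Tor3a was higher at 48 h than at 24 h (1.32 ± 0.22, adjusted p = 0.0249, lost without any one 24 h or 48 h library).

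The peritumoral response was set against the TAA response by testing the difference between these changes in 1 fit of all 12 libraries. Mouse stock and treatment differ together between these pairs and cannot be told apart, and whether the preparation differed too is unclear from the labels. Any difference in age at harvest between peritumoral and untreated mice also enters the peritumoral response. Against 24 h the peritumoral change was lower for 7 of 36 members and higher for none. Of all 14615 tested genes 1771 (12.1%) were lower and 1320 higher. Against 48 h the peritumoral change was lower for 3 of 36 members, near the 8.57% of all genes. It was higher for 0 members there, when 980 of all genes were higher. Isg15 changed by -0.01 beside tumours and 3.57 at 24 h, a difference of -3.67 ± 1.14 (adjusted p = 0.0452), and Usp18 by -0.32 and 2.70 (-3.10 ± 0.85, adjusted p = 0.0304). Dhx58 (-2.31 ± 0.67, adjusted p = 0.0369), Tap1 (-1.49 ± 0.43, adjusted p = 0.0352), Irf9 (-1.31 ± 0.33, adjusted p = 0.0232) and Ifi35 (-1.18 ± 0.28, adjusted p = 0.0196) differed too, as did Oasl1 (-2.81 ± 0.88, adjusted p = 0.0467). Against 48 h the members were Dhx58 (-2.39 ± 0.67, adjusted p = 0.0412), Oasl2 (-2.28 ± 0.66, adjusted p = 0.0439) and Usp18 (-2.85 ± 0.85, adjusted p = 0.0493). None of these calls held with every library left out in turn. Against 24 h the count dropped to 0 with 24 h replicate 1 or control replicate 2 omitted, to 1 with control replicate 1 omitted, to 2 with 24 h replicate 2 or one of the first 2 untreated libraries omitted, and to 3 with either 48 h library omitted. Against 48 h it dropped to 0 when any one liver library, the second untreated library or the first peritumoral one was omitted, and to 1 with the first untreated library omitted. Omitting the third peritumoral library raised both counts to 14. Lower calls over all genes were then 1474 against 24 h and 1056 against 48 h, and 1771 and 1253 with all libraries. Omitting the second raised the count against 48 h to 8, with 1854 of all genes lower. Lower calls over all genes dropped too with any 1 liver library or either of the first 2 untreated libraries omitted. Irf1 (0.09 ± 0.46 against 24 h) and Ifit2 (0.16 ± 1.05) differed little in estimate, but their errors leave room for differences of some size.

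**Figure D5:**
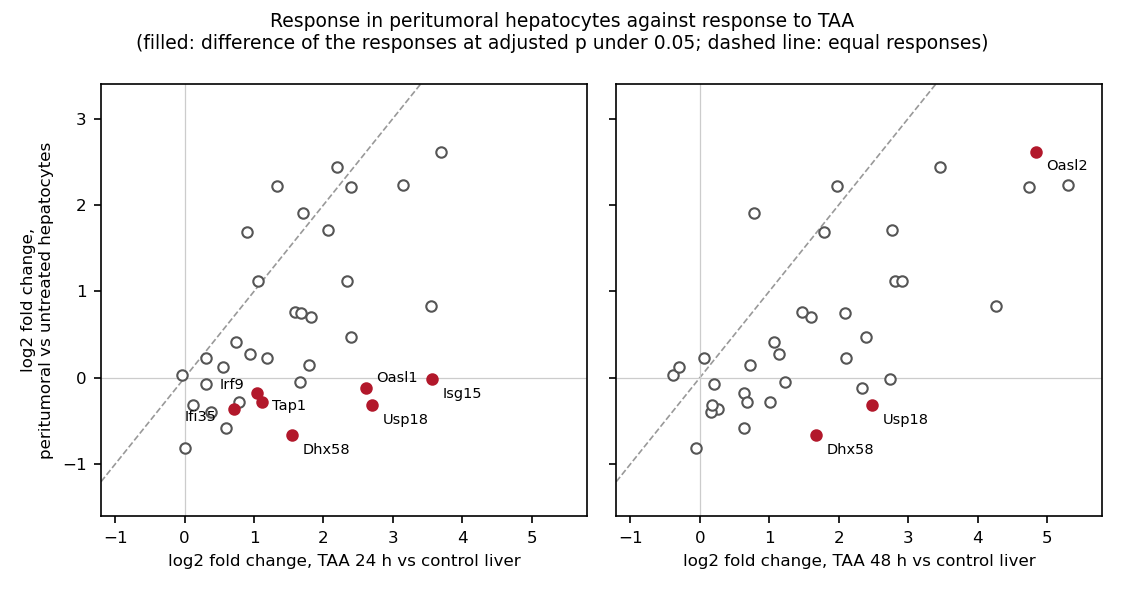
Log2 fold change of each member in peritumoral hepatocytes (vertical axis) against that in liver 24 h (left) and 48 h (right) after TAA (horizontal axis). Filled, named points differ between the responses at an adjusted p of 0.05 (7 and 3 members), the dashed line marks equal responses, and most members lie below it.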

How the data were processed

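Polyadenylated RNA of 12 libraries was prepared with a stranded TruSeq kit, per the labels' protocols. The submitters' processing notes name STAR, DESeq2, mm10 and GRCm38 without versions or roles, and no source names the strand setting of the counting. Both deposited tables were used. The authors' raw read counts per gene (41128 genes) carry no normalisation. The authors' RPM values are library-scaled reads per gene; they were whole multiples of 1 read for 100% of 207732 values (tolerance 1e-06 read, 17311 genes), and edgeR run on those reads called as many genes as on the counts in each of the 6 comparisons (3930, 5644, 6598, 989, 3091 and 2233).

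Counts were tested with edgeR 4.0.16 (R 4.3.3): filterByExpr with a minimum count of 10, TMM factors and the quasi-likelihood F test, with Benjamini-Hochberg adjustment over all genes tested and a threshold of 0.05. The 6 hepatocyte libraries, the 6 liver libraries and, for differences between responses, all 12 libraries were fitted apart (13442, 13497 and 14615 genes). Standard errors are the log2 fold change over the square root of F. Replicates differed beyond sampling noise in every group, and none was deposited more than once. DESeq2 1.42.0 and limma 3.58.1 on log2(RPM + 0.5) or log2(RPM + 0.1) were alternatives, with other factors, filters and libraries left out. Of 41128 gene IDs, 40254 were found in GENCODE M21. The script for the tests was checked on simulated data.

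The members and lists were chosen with earlier results of these data known. In each comparison the text gives the members past the threshold (at most 12 with the smallest p, at most 6 for differences between responses), the 3 largest changes that did not pass, and Irf1, Irf7, Isg15, Ifit1 and Stat2. Of each pathway list it gives the 2 with the smallest p, and the chains of the type I and interferon gamma receptors throughout; 1 further gene of this rule is not reported here. Other members' values, the difference of Oasl1 included, were added after they were seen.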

Additional observations from a re-analysis of the deposited data

Results flagged for a closer look

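Effects that differed between times or between responses were taken from tests of the difference itself. Between 48 h and 24 h after TAA, measured against the same controls, Oas2 (2.34), Oas3 (2.17) and Mx1 (1.75) were higher and Irf1 (-0.93) was lower on the log2 scale. That is 3 and 1 of 36 members, when 4.96% of all tested genes were higher and 2.36% lower, so the counts are near those shares. These 4 differences were tested directly with edgeR, and none was called without either 24 h library.

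The peritumoral change minus the 24 h TAA change was -3.67 for Isg15, -3.10 for Usp18, -2.81 for Oasl1, -2.31 for Dhx58, -1.49 for Tap1, -1.31 for Irf9 and -1.18 for Ifi35. Minus the 48 h change it was -2.85 for Usp18, -2.39 for Dhx58 and -2.28 for Oasl2. That is 7 and 3 of 36 members, when 12.1% and 8.57% of all tested genes were lower, the latter a like share. These 10 interaction tests compare mice of different stock, so stock, treatment and any difference in age at harvest cannot be told apart.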

How the results depend on the processing

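Counts of members called at 24 h and 48 h against controls stayed within 1.5 times of 26 and 25 under other factors, filters, DESeq2 and limma. With all 12 libraries in 1 fit, 13 rose at 24 h, 1 fell beside tumours, and none was called higher or lower between 48 h and 24 h (0 and 0). Without scaling factors the median member was at 1.95 at 24 h and 2.24 at 48 h. With limma it was 1.96 at 24 h (pseudocount 0.1) and at 48 h 2.13 (0.5) or 2.22 (0.1). Stat2 at 48 h turned from -0.05 to 0.66 without factors and to 0.66 with limma on RPM, which carries no TMM factors, at both pseudocounts (0.5 and 0.1). Between 48 h and 24 h, 6 members were higher without factors, with DESeq2 or with limma (0.5), and 2 were lower with DESeq2. The peritumoral response was lower than that at 24 h for 11 members without factors and 12 with limma (0.1). Against 48 h it was lower for 1 with RLE factors or no count filter, 9 with DESeq2, 15 without factors or with limma (0.5), and 17 with limma (0.1). Apart from Stat2, no member given by name changed direction where either value passed the test.

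Leaving out 1 library at a time gave 2 to 8 higher members beside tumours and 15 to 26 at 24 h, where the median ran from 0.98 to 1.70. At 48 h 0 to 1 were lower. Between 48 h and 24 h 0 to 4 were higher and 0 to 2 lower, with a median from -0.22 to 0.28. Responses differed for 0 to 14 members at 24 h and 0 to 14 at 48 h. Fits that leave 1 library in a group assume that it varies like the others. With any 1 liver library left out, higher calls over all genes against controls dropped at 24 h and 48 h as well.

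Same-numbered hepatocyte libraries did not deviate together (correlations -0.223, 0.165 and 0.105). The livers have 2 libraries a group, whose deviations mirror each other, so their correlations (0.023 to 0.027) cannot settle whether the numbers pair them. Among the members, replicate 1 was above replicate 2 for 32 of 36 in controls, 32 of 36 at 24 h and 15 of 36 at 48 h. With the replicate block 5 members rose beside tumours, 27 at 24 h and 27 at 48 h, and responses differed for 9 and 9. The lowest member count was 2, for Oas2 in a control liver. Low control counts limit the ratios of Oas2 and Oas3 and the changes of Oas1a, Oasl2 and Mx1.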
